A study of Mus musculus with 12 samples.

Results

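The creatine kinase and adenylate kinase energy shuttle was followed through 8 genes, taken as a named set from the 27179 genes counted in each library. They are the creatine kinases Ckmt2, Ckm and Ckb, the creatine transporter Slc6a8, the creatine synthesis enzyme Gatm, and the adenylate kinases Ak1, Ak3 and Ak4. Each had 1 row in the count table, found by its Entrez gene number, and all 8 were among the 13626 genes that passed the filter on low counts. The study measured RNA in mouse hearts in a design of exposure by surgery, with 3 hearts in each of 4 groups. Mothers breathed diesel exhaust (DE) or filtered air (FA) from E0.5 to E17.5 (embryonic days), and the offspring were raised in filtered air. Transverse aortic constriction (TAC), a narrowing of the aorta around a 27-gauge needle that puts a pressure load on the left ventricle, or a sham operation followed at 12 weeks of age, and hearts were taken at 15 weeks. The groups were therefore diesel exhaust with TAC, diesel exhaust with sham, filtered air with TAC, and filtered air with sham. The sources used here do not give strain, sex, litter or the run of each library, so hearts of a group may be litter mates and the p-values measure only the spread between these hearts.

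Heart muscle keeps a small pool of ATP that it turns over within seconds, and phosphotransfer enzymes carry high-energy phosphate from mitochondria to the myosin heads and ion pumps that spend it. Mitochondrial creatine kinase charges creatine with phosphate where ATP leaves the mitochondrion, and cytosolic creatine kinase dimers, built of M and B subunits, regenerate ATP at the sites of use. Adenylate kinases interconvert ADP with ATP and AMP, and the AMP they form is the signal read by the AMP-activated protein kinase. A shift of cytosolic creatine kinase from M toward B subunits is a textbook feature of the fetal and the overloaded heart, and the ratio of Ckb to Ckm transcripts asks for it here.

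The promoters of Ckm and Ckb are shown first because that ratio sets these genes against each other. The windows run from 250 bases before to 50 bases after the RefSeq start on GRCm38.p6, the assembly of mm10, and 7 of the 8 genes had an entry. Capitals mark exact matches to 6 elements searched on both strands, which were the TATA box in the forms TATAAA and also TATATA, the CCAAT box with those letters, the E-box CANNTG, the GC box with letters GGGCGG, and the CArG box. Ckm is at chr7:19410844-19411143 on the plus strand and Ckb at chr12:111672289-111672588 on the minus strand.
Ckm: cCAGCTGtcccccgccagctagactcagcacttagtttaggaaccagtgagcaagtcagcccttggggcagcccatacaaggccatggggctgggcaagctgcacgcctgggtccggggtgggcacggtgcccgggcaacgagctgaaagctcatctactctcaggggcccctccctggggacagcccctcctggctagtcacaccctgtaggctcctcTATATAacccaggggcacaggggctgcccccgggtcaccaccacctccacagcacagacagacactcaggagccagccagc
Ckb: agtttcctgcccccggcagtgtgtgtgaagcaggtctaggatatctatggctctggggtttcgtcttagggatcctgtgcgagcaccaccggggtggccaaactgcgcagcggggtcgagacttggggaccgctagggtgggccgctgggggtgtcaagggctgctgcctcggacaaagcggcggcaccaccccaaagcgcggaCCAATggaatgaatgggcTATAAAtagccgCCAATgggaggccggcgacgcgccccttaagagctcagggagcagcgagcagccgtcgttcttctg
The Ckm window held TATATA starting 31 bases before the start and an E-box, CAGCTG, 249 bases before it. In the Ckb window, TATAAA lay 28 bases before the start between a pair of CCAAT elements at 46 and 16 bases before it. No marked element overlapped another, and neither window held GGGCGG or a CArG box. Of the 32851 mouse promoter windows in the same table, 13.6% held TATAAA, 5.7% TATATA, 37.4% CCAAT, 72.3% an E-box, 35.7% GGGCGG and 1.6% a CArG box. These are letter matches, not tested sites.

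Library totals ran from 5534685 to 13265816 counts, and mitochondrially encoded RNA took 18.3% to 32.4% of them. Levels are given in CPM, the counts scaled with TMM factors to a common library size, and errors of levels are SD over n = 3 hearts. As a check of the surgery labels, Nppb, a natriuretic peptide gene induced by load, was 4.54-fold higher with TAC after diesel exhaust (adjusted p = 0.00017, edgeR) and 4.32-fold higher after filtered air (adjusted p = 0.000563). Ventricular cardiomyocyte markers were abundant in every heart, and the skeletal muscle regulators Myod1 and Myog were at 0 in all 12 libraries.

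Per kilobase of transcript, the scale on which genes can be compared, Ckmt2 was highest at a mean of 1153 CPM per kilobase over the 12 libraries (906 to 1384). Ckm followed at 684 (568 to 807) and Ak1 at 174 (124 to 233). Ak3, Slc6a8 and Ckb lay close together at 27.9 (21.5 to 35.1), 24.2 (18.9 to 28.7) and 16.2 (9.87 to 26.2) CPM per kilobase. Ak4 averaged 4.23 (2.66 to 5.6) and Gatm 1.21 (0.202 to 2.44). The ranges of Ak3 and Slc6a8 overlapped, as did those of Slc6a8 and Ckb, although Slc6a8 was above Ckb within each of the 12 libraries and Ak3 above Slc6a8 within 10 of 12. All other neighbours in the order were separated in every library. The order of Ak3 and Slc6a8 depends on the transcript length used. For Slc6a8 this was 3964 bases, and its shorter transcript of 3314 bases would raise its value. In CPM without division by length, Slc6a8 had the higher mean. The coefficient of variation over the 12 libraries was 12% for Ckmt2 and for Ckm, 12.7% for Ak3, 13.4% for Slc6a8, 16.9% for Ak1, 25.1% for Ak4, 27.7% for Ckb and 64.3% for Gatm.

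**Figure D1:**
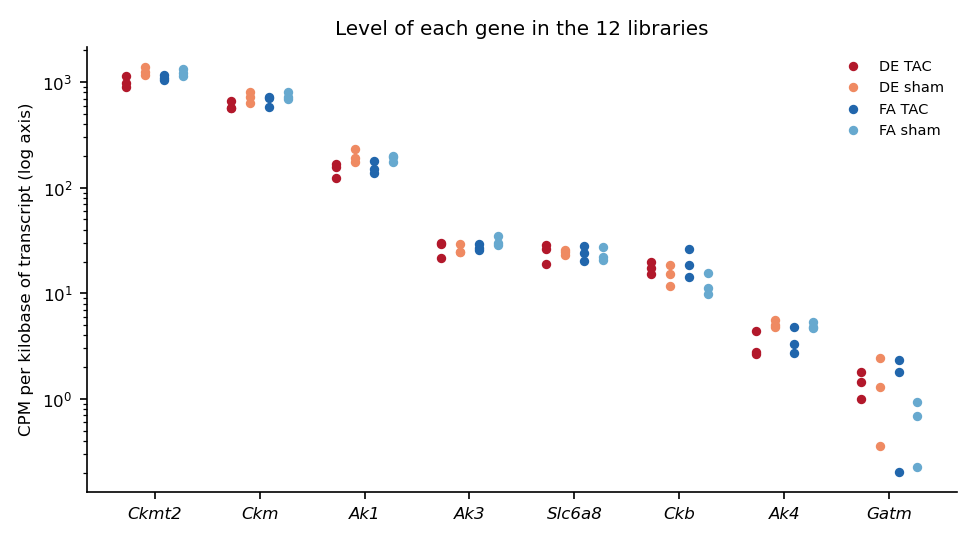
Level of each gene per kilobase of transcript on a log axis, with 1 point per library and a colour per group (DE TAC, DE sham, FA TAC, FA sham; n = 3 each). The genes run from Ckmt2, with a mean of 1153 CPM per kilobase, down to Gatm at 1.21, and the Ak3, Slc6a8 and Ckb points share a range.

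No gene of the shuttle passed the threshold for TAC against sham, in either exposure or averaged over both (edgeR quasi-likelihood test, Benjamini-Hochberg adjusted p below 0.05 over all genes tested). Over the average of both exposures 8.01% of all genes tested passed (1091 of 13626), of which 558 were higher with TAC, or 814 of 1099 when libraries were scaled by their totals alone. Within diesel exhaust 3.24% passed and within filtered air 0.829%. The estimates nearest to the threshold were those of Ak4 and Ak1, lower with TAC, and of Ckb, higher with TAC, which had an unadjusted p below 0.05 in the average of both exposures, where 21.6% of all genes did. Within single exposures Ak1 and Ak4 had one after diesel exhaust, as did 15.9% of all genes, and Ckb after filtered air, as did 11.1%. The median log2 fold change of the 8 genes was -0.14, beside 0.004 over all genes tested, and 5 of the 8 estimates were below 0. In bulk heart tissue, fewer cells of a type and less RNA per cell cannot be told apart.

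Ckmt2 encodes the sarcomeric mitochondrial creatine kinase (gene number 76722, chr13:91853386-91876923). It stood at 1346, 1682 and 1461 CPM in the TAC hearts, against 1732, 2057 and 1846 CPM in the sham hearts after diesel exhaust. These groups did not overlap. After filtered air it stood at 1640, 1726 and 1542 CPM in the TAC hearts and 1832, 1693 and 1995 CPM in the sham hearts, which overlapped. The log2 fold change was -0.33 ± 0.17 (SE, adjusted p = 0.369) after diesel exhaust, -0.17 ± 0.17 (adjusted p = 0.808) after filtered air, and -0.25 ± 0.12 (adjusted p = 0.243) averaged over both. The 95% interval of the average ran from 0.706-fold to 1-fold, so a loss of up to that size is within the error.

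Ckm encodes the muscle-type cytosolic creatine kinase that binds at the M-band of the sarcomere (gene number 12715, chr7:19411094-19421583). Its levels were 803, 948 and 811 CPM with TAC and 1141, 894 and 1022 CPM with sham after diesel exhaust. After filtered air they were 1026, 829 and 1006 CPM with TAC and 1142, 1019 and 981 CPM with sham. The TAC and sham ranges overlapped in both exposures. Averaged over exposures, the log2 fold change was -0.20 ± 0.12 (adjusted p = 0.384), with a 95% interval from 0.733-fold to 1.04-fold.

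Ckb encodes the brain-type cytosolic creatine kinase, which is found in many non-muscle cells and joins Ckm in mixed dimers of heart muscle (gene number 12709, chr12:111669355-111672338). It was measured on 99 to 356 counts per library. The diesel exhaust hearts had 25.8, 22.5 and 29.2 CPM with TAC and 27.6, 22.2 and 17.3 CPM with sham. In the filtered air hearts it stood at 38.6, 27.6 and 20.8 CPM with TAC and 23.0, 14.5 and 16.4 CPM with sham. Surgery groups overlapped in both exposures, and the highest library was a filtered air TAC heart, replicate 1. The log2 fold change was 0.21 ± 0.24 (adjusted p = 0.753, edgeR) after diesel exhaust and 0.68 ± 0.25 (unadjusted p = 0.0115, adjusted p = 0.263) after filtered air. Averaged over both exposures it was 0.45 ± 0.17, or 1.36-fold, with an adjusted p of 0.129 and a 95% interval from 1.06-fold to 1.75-fold.

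**Figure D2:**
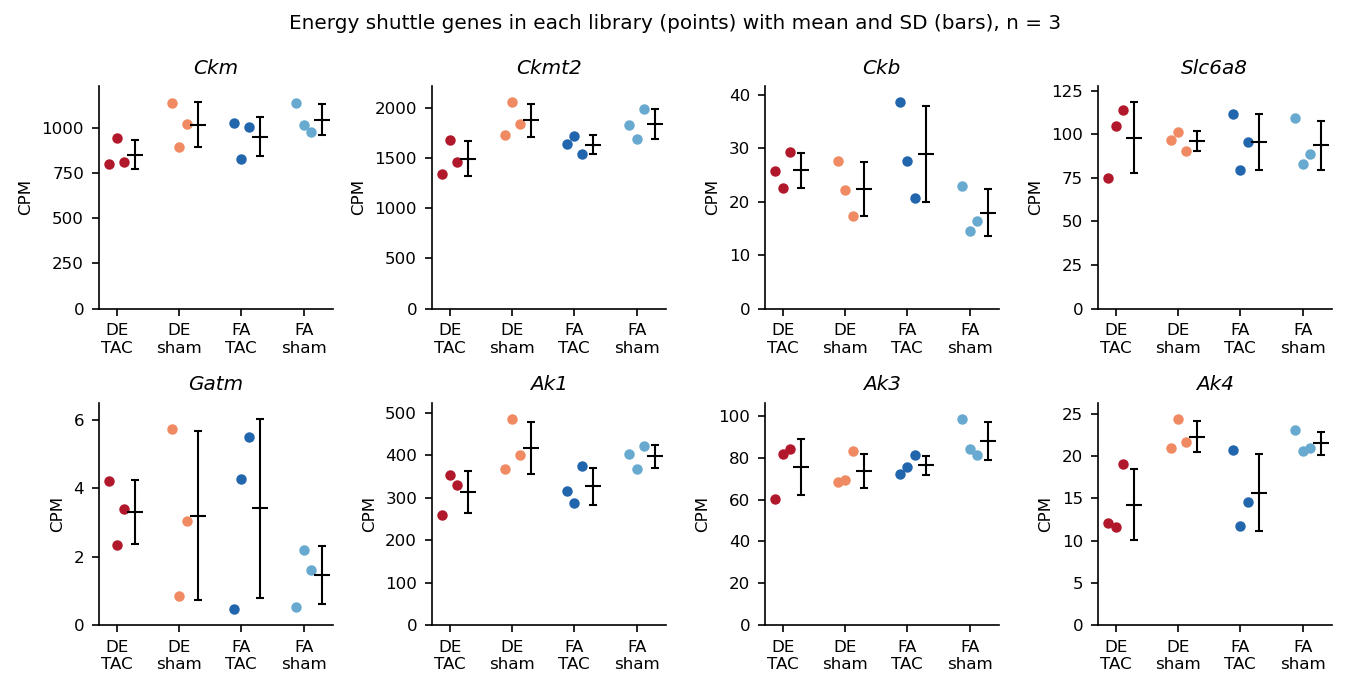
CPM of the 8 genes in each library, in panels whose axes start at 0, with the 4 groups side by side. Points are libraries and the bars beside them the mean and SD (n = 3). Ak4 sits between 20.6 and 24.4 CPM in the 6 sham hearts and between 11.6 and 20.7 CPM in the 6 TAC hearts.

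As a share of the 3 creatine kinase transcripts per base, Ckmt2 made up 61.8% ± 0.954 (SD, n = 3) in the diesel exhaust TAC hearts and 63.2% ± 4.81 in the diesel exhaust sham hearts, and 61.4% ± 3.82 and 62.2% ± 3.01 in the TAC and sham hearts of the filtered air groups. Ckb made up the smallest share, at 1.09% ± 0.221 with TAC and 0.76% ± 0.174 with sham after diesel exhaust, and 1.09% ± 0.306 with TAC and 0.61% ± 0.129 with sham after filtered air.

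The Ckb to Ckm ratio, which does not depend on how libraries are scaled, was expressed as Ckb in percent of Ckm per base. After diesel exhaust it was 3.09%, 2.29% and 3.47% in TAC hearts and 2.32%, 2.39% and 1.63% in sham hearts. After filtered air it was 3.61%, 3.2% and 1.99% in TAC hearts and 1.93%, 1.37% and 1.61% in sham hearts. The filtered air groups did not overlap, while 1 diesel exhaust TAC heart, replicate 2, lay within the sham range. With TAC the ratio was 1.56-fold that with sham when averaged over exposures, a log2 difference of 0.64 beside a within-group SD of 0.34. An exact two-sided permutation test within exposures gave p = 0.02, and adjusted over 6 tests (3 ratios in 2 contrasts) p = 0.09. Without diesel exhaust TAC replicate 2 the log2 difference was 0.73 with an adjusted exact permutation p of 0.03. Of the 12 fits with 1 library left out, only that 1 fell below 0.05, and the highest adjusted p was 0.15. Unequal groups have fewer arrangements, without a mirror of each, so these p-values cannot be set directly beside that of all 12 hearts. Within a single exposure 3 against 3 hearts cannot give an exact permutation p below 0.10: the log2 difference was 0.48 (p = 0.3) after diesel exhaust and 0.81 (p = 0.1) after filtered air.

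For the mitochondrial against the muscle enzyme there was little difference. Ckmt2 in percent of Ckm averaged 167% ± 6.81 with TAC and 179% ± 37.4 with sham after diesel exhaust, and 165% ± 28.4 with TAC and 168% ± 22.4 with sham after filtered air (SD, n = 3 each). The log2 difference between TAC and sham was -0.05 (exact permutation p = 0.675, adjusted p = 0.695), less than the within-group SD of 0.22.

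**Figure D3:**
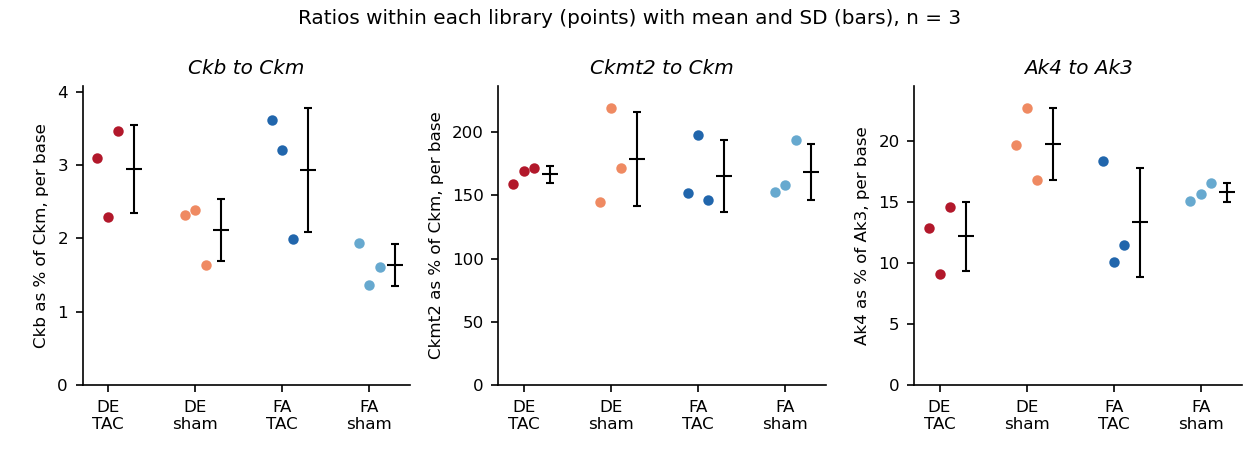
Ckb in percent of Ckm, Ckmt2 in percent of Ckm, and Ak4 in percent of Ak3, each per base of transcript and computed within each library (points), with group mean and SD (bars, n = 3). Ckb to Ckm reaches 3.61% in a TAC heart and at most 2.39% in a sham heart; the Ckmt2 to Ckm panels span 145% to 219% with no order by surgery.

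Slc6a8 encodes the plasma membrane transporter through which heart muscle takes up creatine (gene number 102857, chrX:73673133-73682502). Its levels were 75.1, 105 and 114 CPM with TAC and 96.6, 102 and 90.5 CPM with sham after diesel exhaust, and 112, 79.6 and 95.5 CPM with TAC and 109, 82.8 and 88.4 CPM with sham after filtered air. All 4 groups overlapped. The average log2 fold change with TAC was 0.03 ± 0.13 (adjusted p = 0.936, edgeR), with a 95% interval from 0.846-fold to 1.23-fold.

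Gatm encodes the enzyme of the first step of creatine synthesis, which takes place mainly in kidney (gene number 67092, chr2:122594473-122611277). Only 4 to 58 counts per library supported it. It stood at 4.21, 2.34 and 3.38 CPM with TAC and 5.74, 0.836 and 3.03 CPM with sham after diesel exhaust, and at 0.476, 4.26 and 5.5 CPM with TAC and 0.529, 2.20 and 1.62 CPM with sham after filtered air. In the diesel exhaust sham and filtered air TAC groups single hearts ranged from below 1 CPM to above 5 CPM. The 95% interval of the average fold change with TAC, 0.745-fold to 3.29-fold, does not exclude a change of several-fold (adjusted p = 0.519, edgeR). Gamt, which completes creatine synthesis, was as low at 1.59 to 4.41 CPM and had an average log2 fold change of 0.15 ± 0.37.

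Ak1 encodes the main cytosolic adenylate kinase of muscle (gene number 11636, chr2:32621758-32635058). After diesel exhaust its levels were 259, 352 and 330 CPM with TAC and 367, 485 and 401 CPM with sham, without overlap. After filtered air they were 317, 288 and 375 CPM with TAC and 404, 367 and 421 CPM with sham, and the ranges met in 1 TAC heart. The log2 fold change was -0.41 ± 0.17 (adjusted p = 0.23, edgeR) after diesel exhaust and -0.28 ± 0.17 (adjusted p = 0.595) after filtered air. The average was -0.35 ± 0.12, or 0.786-fold, with an adjusted p of 0.0882 and a 95% interval from 0.659-fold to 0.937-fold.

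Ak4 encodes an adenylate kinase of the mitochondrial matrix that is known as a target of hypoxia signalling (gene number 11639, chr4:101416478-101467771). It was measured on 94 to 218 counts per library. The diesel exhaust hearts had 12.1, 11.6 and 19.1 CPM with TAC and 20.9, 24.4 and 21.6 CPM with sham, without overlap. In the filtered air hearts it stood at 20.7, 11.8 and 14.6 CPM with TAC and 23.1, 20.6 and 20.9 CPM with sham. Of the 6 TAC hearts 5 lay below every sham heart, and the other, filtered air TAC replicate 1, lay just above the lowest. The log2 fold change was -0.65 ± 0.24 (adjusted p = 0.17, edgeR) after diesel exhaust and -0.46 ± 0.24 (adjusted p = 0.513) after filtered air. Averaged over both it was -0.55 ± 0.17, or 0.683-fold, with an unadjusted p of 0.0042, an adjusted p of 0.0515 and a 95% interval from 0.533-fold to 0.875-fold. This is the value of the set that turns on the settings: the adjusted p was 0.0375 with no filter on low counts, 0.0358 with DESeq2, 0.0412 with limma voom, 0.0157 without filtered air TAC replicate 1 and 0.0246 without diesel exhaust TAC replicate 3. With 1 library left out the adjusted p was below 0.05 in only 2 of 12 fits, and its highest value was 0.157 (edgeR). The other scalings and the filter at a mean of at least 1 CPM also left it above 0.05. Over all settings and left-out libraries the estimate ran from -0.68 to -0.44 and did not change sign.

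Ak3, the closest relative of Ak4 and the GTP-using adenylate kinase of the same compartment (gene number 56248, chr19:28995053-29048080), stood at 60.4, 82.1 and 84.4 CPM with TAC and 68.6, 69.4 and 83.1 CPM with sham after diesel exhaust. After filtered air it stood at 72.4, 75.4 and 81.5 CPM with TAC and 98.7, 84.3 and 81.3 CPM with sham. Both pairs overlapped, and the average log2 fold change of -0.08 ± 0.12 had an adjusted p of 0.757 (edgeR). It was 0.03 when libraries were scaled by their totals alone, a scaling that moved the median of all genes by 0.11 upward in this comparison. Ak4 in percent of Ak3 per base was 12.9%, 9.1% and 14.6% with TAC and 19.7%, 22.7% and 16.8% with sham after diesel exhaust. In the filtered air hearts it was 18.4%, 10.1% and 11.5% with TAC and 15.1%, 15.7% and 16.6% with sham. The average ratio with TAC was 0.707-fold that with sham (exact permutation p = 0.03, adjusted p = 0.09). Without filtered air TAC replicate 1, the heart with the highest ratio among TAC hearts, the log2 difference was -0.63 with an adjusted exact permutation p of 0.03. Only that 1 of 12 left-out fits fell below 0.05, the highest adjusted p was 0.18, and unequal groups have fewer arrangements.

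In all, 3 of the 8 genes (Ckmt2, Ak1 and Ak4) were lower without overlap in the TAC hearts after diesel exhaust, where 11.2% of all genes tested were lower and 11.1% higher without overlap; none was separated after filtered air, where 7.57% were lower and 8.2% higher without overlap. When the 6 TAC hearts were set against the 6 sham hearts no gene of the set was separated, beside 2.13% of all genes lower and 2.19% higher without overlap.

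**Figure D4:**
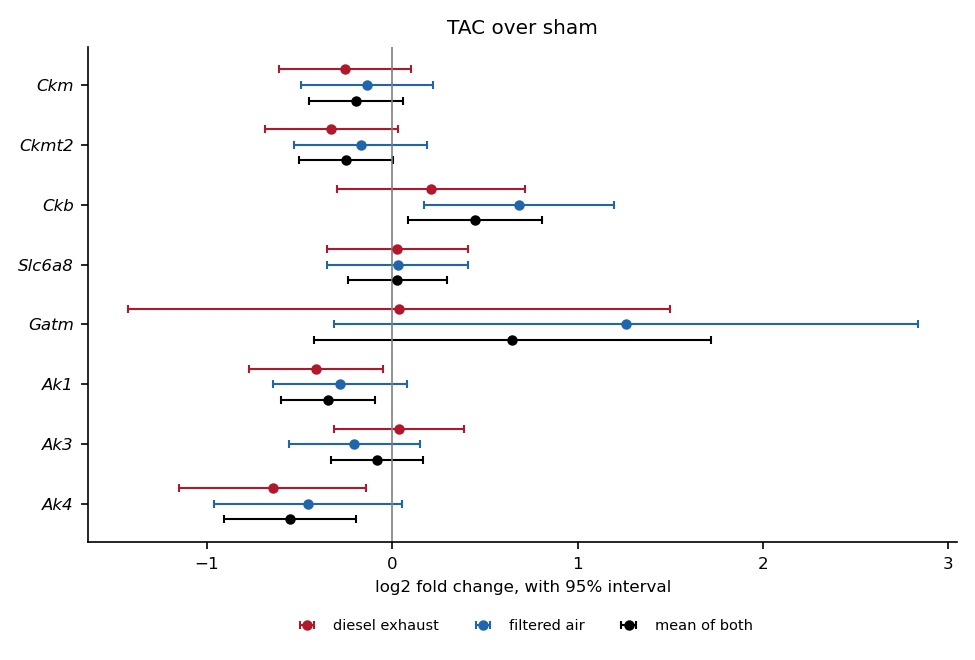
Log2 fold change of TAC over sham for each gene after diesel exhaust, after filtered air, and averaged over both, with 95% intervals from the edgeR fit of 12 libraries. The average intervals of Ckb (0.08 to 0.81), Ak1 (-0.60 to -0.09) and Ak4 (-0.91 to -0.19) exclude 0 before adjustment for the 13626 genes tested, and Gatm has the widest.

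Diesel exhaust before birth was not associated with a detectable change of any of the 8 genes. Against filtered air, 0 of 13626 genes (0%) passed the edgeR threshold among TAC hearts, among sham hearts or averaged over surgery, while 255 genes (1.87%), 503 genes (3.69%) and 452 genes (3.32%) had an unadjusted p below 0.05 in these comparisons; DESeq2 passed 1 gene among TAC hearts. None of the 8 had an unadjusted p below 0.05 in any of them. Among TAC hearts the log2 fold changes of diesel exhaust over filtered air were -0.13 for Ckmt2, -0.16 for Ckm and -0.16 for Ckb. For the adenylate kinases Ak1, Ak3 and Ak4 they were -0.06, -0.02 and -0.14. Among sham hearts the largest were those of Gatm (1.19 ± 0.75), Ckb (0.31 ± 0.25) and Ak3 (-0.26 ± 0.17), each with an adjusted p of 0.996 (edgeR). The Gatm estimate among sham hearts ran from 0.47 to 1.66 with 1 library left out, and was lowest without diesel exhaust sham replicate 1. In CPM, no group pair was free of overlap for any of the 8 genes, beside 3.96% of genes higher and 3.76% lower without overlap among TAC hearts, 4% and 3.6% among sham hearts, and 0.0367% in each direction between all 6 diesel exhaust and all 6 filtered air hearts. Averaged over surgery, the 95% intervals of diesel exhaust over filtered air were 0.784-fold to 1.11-fold for Ckm, 0.811-fold to 1.15-fold for Ckmt2, 0.82-fold to 1.35-fold for Ckb and 0.758-fold to 1.24-fold for Ak4. For Gatm the interval was wider, from 0.711-fold to 3.14-fold. All these intervals treat the hearts as independent. Exposure was given to the mothers and litters are not stated, so the intervals may be too narrow.

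**Figure D5:**
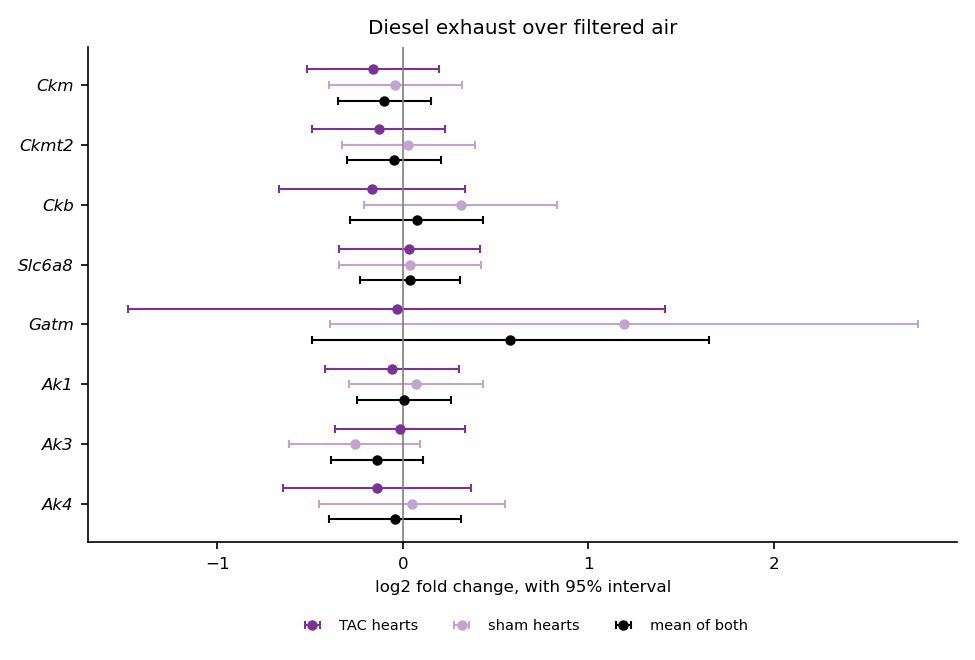
Log2 fold change of diesel exhaust over filtered air for each gene among TAC hearts, among sham hearts, and averaged over both surgeries, with 95% intervals from the edgeR fit. Each of the intervals includes 0, from Ak1, whose average is 0.01, to Gatm, whose sham estimate is 1.19.

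The Ckb to Ckm ratio averaged 2.95% ± 0.602 in diesel exhaust TAC hearts and 2.93% ± 0.842 in filtered air TAC hearts, and 2.11% ± 0.42 in diesel exhaust sham hearts and 1.64% ± 0.281 in filtered air sham hearts (SD, n = 3 each). Averaged over surgery the log2 difference of diesel exhaust from filtered air was 0.20 (exact permutation p = 0.32, adjusted p = 0.64). Ak4 in percent of Ak3 was higher without overlap in the diesel exhaust sham hearts (19.7%, 22.7% and 16.8%) than in the filtered air sham hearts (15.1%, 15.7% and 16.6%), a log2 difference of 0.31 with an exact permutation p of 0.1, the smallest that 3 against 3 hearts can give. Among TAC hearts the log2 difference was -0.11 (exact permutation p = 0.9). Averaged over surgery its difference was 0.10 (exact permutation p = 0.575, adjusted p = 0.695), and for Ckmt2 to Ckm it was 0.05 (exact permutation p = 0.695, adjusted p = 0.695). Whether TAC moved the shuttle differently after diesel exhaust was asked by the interaction of exposure and surgery, in which 0 of 13626 genes (0%) passed with edgeR, 1 with DESeq2, and 327 (2.4%) had an unadjusted p below 0.05, none of the 8 among them. The interaction was -0.47 ± 0.35 for Ckb (unadjusted p = 0.186, adjusted p = 1), -0.13 ± 0.24 for Ak1, -0.19 ± 0.34 for Ak4, -0.16 ± 0.24 for Ckmt2 and -0.12 ± 0.24 for Ckm on the log2 scale. For the Ckb to Ckm ratio it was -0.33 (exact permutation p = 0.4), and for Ak4 to Ak3 -0.42 (exact permutation p = 0.27). The larger estimates of Ckb after filtered air and of Ak4 after diesel exhaust are thus not shown to differ from those of the other exposure.

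Around the shuttle, no gene of the other phosphotransfer enzymes and nucleotide exchangers passed in any comparison (18 of 24 listed were tested, with a median log2 fold change of -0.02 with TAC averaged over exposures). Among them Vdac1, the outer membrane pore through which phosphocreatine leaves mitochondria, had an average log2 fold change of -0.32 ± 0.12 (adjusted p = 0.114, edgeR), and Slc25a4, the ADP and ATP exchanger of heart, -0.30 ± 0.21. None of 23 tested genes of AMP-activated protein kinase and adenine nucleotide turnover passed (median 0.12). Over all genes tested at most 8.01% passed in a comparison, that of TAC averaged over exposures, where the median was 0.004. The absence of calls in lists this short therefore says little about them.

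Of 9 pumps and myosins that spend the ATP supplied by creatine kinase, 1 was higher and 2 were lower with TAC in the average of both exposures, where 4.1% of all genes were called higher and 3.91% lower. Myh7, the slow myosin of the fetal mouse ventricle, rose by 1.26 ± 0.20 on the log2 scale (adjusted p = 0.000582, edgeR). Atp2a2, the calcium pump of the sarcoplasmic reticulum, fell by 0.79 ± 0.16 (adjusted p = 0.00388), and Myh6, the fast adult myosin, fell by 0.65 ± 0.16 (adjusted p = 0.0169, or 0.0563 without filtered air sham replicate 1). Myh6 and Myh7 are close in sequence, and the sources used here do not state how reads shared by both were counted.

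Of 15 listed transcription factors and coactivators of creatine kinase or energy genes, 12 had estimates below 0 with TAC (median -0.37), and in the average of both exposures 1 was called higher and 2 lower, beside 4.1% of all genes called higher and 3.91% lower. Hif1a, the oxygen-regulated factor, rose by 0.50 ± 0.15 (adjusted p = 0.0426, edgeR). Ppara, a nuclear receptor of fatty acid oxidation genes, fell by 0.53 ± 0.14 (adjusted p = 0.022), and the thyroid hormone receptor Thrb fell by 0.61 ± 0.18 (adjusted p = 0.0426). These calls were marginal. Hif1a kept its call only when the library left out was filtered air TAC replicate 1, diesel exhaust sham replicate 3 or diesel exhaust TAC replicate 1, with a highest adjusted p of 0.146 (edgeR), and lost it with limma voom (0.0614). Thrb kept its call only without filtered air sham replicate 1, filtered air TAC replicate 1 or diesel exhaust sham replicate 2, with a highest adjusted p of 0.135 (edgeR), and lost it with libraries scaled by their totals alone (0.0987) and with limma voom (0.0851). Ppara lost its call without diesel exhaust TAC replicate 1 or 3, diesel exhaust sham replicate 2, filtered air TAC replicate 2 or filtered air sham replicate 2, with an adjusted p of at most 0.0699 (edgeR), and with libraries scaled by their totals alone, at 0.0971. In the list of creatine and precursor supply, 1 of 10 tested genes passed, beside 8.01% of all genes: Slc7a1, a transporter of cationic amino acids such as arginine, fell by 0.53 ± 0.15 (adjusted p = 0.0339, edgeR). That call was lost with libraries scaled by their totals alone (adjusted p = 0.122), and without any 1 of diesel exhaust TAC replicate 1, diesel exhaust sham replicates 1 and 2, filtered air TAC replicates 1 and 2, and filtered air sham replicates 1 and 2. No gene of these 5 lists passed in a comparison of diesel exhaust with filtered air or in the interaction.

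Markers of ventricular cardiomyocytes, the cells richest in Ckm and Ckmt2, summed to 46905 to 58066 CPM with TAC and 69650 to 85157 CPM with sham after diesel exhaust, and to 46910 to 74320 CPM with TAC and 65771 to 90042 CPM with sham after filtered air. The largest single part of that sum was Myh6, so the sum follows this 1 gene closely. Myh6 averaged 18538 CPM with TAC and 32568 CPM with sham after diesel exhaust, and 21771 and 30326 CPM after filtered air. In the average of both exposures 4 of these 10 markers were lower with TAC (Myh6, Tnni3, Tnnt2 and Ryr2) and Myoz2 was higher, with a median of -0.33, where 3.91% of all genes were called lower and 4.1% higher. Of these calls only that of Tnni3 held whichever library was left out: Myh6 lost its call without 1 library, Ryr2 without 3, Tnnt2 without 5 and Myoz2 without 9 of the 12. Tnnt2 also lost its call with libraries scaled by their totals alone (adjusted p = 0.0651, edgeR). Fibroblast markers summed to 2698 to 2958 CPM with TAC and 1477 to 1939 CPM with sham after diesel exhaust. After filtered air they summed to 2023 to 3069 CPM with TAC and 1572 to 1700 CPM with sham. Of these markers 5 of 9 were called higher with TAC, beside 4.1% of all genes (median 0.85), and all 9 estimates were above 0. The largest part of that sum was Gsn, which averaged 1018 CPM with TAC and 994 CPM with sham after diesel exhaust, and 959 and 854 CPM after filtered air. Calls of markers outside the cardiomyocyte list were not recomputed with libraries left out. Macrophage markers were higher with TAC in 2 of 9, smooth muscle and pericyte markers higher in 1 and lower in 2 of 9, and endothelial markers in 0 of 9, beside the same 4.1% higher and 3.91% lower over all genes. The 5 tested of 9 Schwann cell and neuron markers, of interest because Ckb is a brain-type gene, gave no call. All 9 together, those below the filter included, summed to 80.6 to 151 CPM with TAC and 54 to 123 CPM with sham after diesel exhaust. After filtered air the 9 summed to 80.3 to 151 CPM with TAC and 64.6 to 86.9 CPM with sham. Adipocyte markers were at 0 to 8.12 CPM in sum, and skeletal muscle markers, which include fast-fibre genes also carried at trace level by heart, at 10.8 to 23.2 CPM. The part of the cell mixture in the values of Ckb, Ak1, Ak4 and Ckmt2 was not tested.

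Across the 12 libraries the genes of the set varied together to different degrees, described here by Pearson's r of log2 CPM without a test, since the libraries share scaling, group and depth. Ckmt2 and Ak1 had r = 0.82, Ak1 and Ak4 0.71, and Ckmt2 and Ak4 0.58. Ckm and Ckmt2 had only 0.43, and Ckb had -0.52 with Ak1, -0.40 with Ckmt2 and -0.21 with Ckm. Diesel exhaust sham replicate 2 had the highest CPM of Ckmt2 (2057), Ak1 (485) and Ak4 (24.4). That library also had the lowest total (5534685 counts) and the lowest share of mitochondrially encoded RNA (18.31%). The values of r without it were not computed. Among 7629 genes with a mean of at least 10 CPM, those closest to Ckm were Nnt (0.929), the mitochondrial transhydrogenase, Mfn2 (0.914), a mitochondrial fusion protein, and Acadl (0.911), a fatty acid oxidation enzyme. Those closest to Ckb were Gnao1 (0.86), a G protein subunit, Psmd8 (0.858), a proteasome subunit, and Dipk1b (0.855). The genes named for Ckm and for Ckb were picked as the highest of 7629 values of r over only 12 libraries. Such a choice gives high values by itself, so they show no relation between these genes.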

How the data were processed

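RNA of 12 mouse hearts was sequenced as ribosome-depleted total RNA on an Ion semiconductor instrument, per the labels' protocols. Reads were handled with cutadapt 1.6, Subread 1.4.2 and featureCounts on build mm10, per the submitters' processing notes, and the deposited table holds unnormalized read counts by Entrez gene number. Strand handling and the treatment of reads with several matches were not stated in the sources used here, so counts of relatives (Ak3 and Ak4, Myh6 and Myh7) or of overlapping genes can hold shared reads. Symbols came from RefSeq GRCm38.p6 for 25275 of 27179 genes and from GENCODE for 18; the 1886 genes without a symbol held 4.19% of counts and stayed in the fit. No pair of libraries was identical. A floor of 3 counts was 0.226 to 0.542 CPM per library and covers counting error only.

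Here, edgeR 4.0.16 in R 4.3.3 was used on the deposited counts. A filter (filterByExpr, count minimum 10) kept 13626 genes, and library sizes and TMM factors were computed over these genes. A robust quasi-likelihood fit with 1 mean per group over all 12 libraries followed. The 7 comparisons were TAC against sham and diesel exhaust against filtered air, each within both levels of the other factor and averaged over them, and the interaction. Within a comparison, Benjamini-Hochberg adjustment ran over all genes tested with a threshold of 0.05, and intervals are 95%. CPM per kilobase used the longest transcript of each gene. Ratios were tested by exact two-sided permutation of surgery within exposure, or of exposure within surgery, over 400 arrangements, so that the smallest possible p is 0.005. With 1 library left out there were fewer arrangements. The fit was tested on simulated counts first. Alternatives were other scalings, filters and samples in the fit, DESeq2 1.42.0, limma 3.58.1 voom, and leaving out each library; for named genes outside the set of 8 they were added after seeing the data.

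The 8 genes and all gene lists were chosen with earlier results of these data known. The text names all 8, up to 4 genes of each list that passed in a comparison, the 3 genes closest to Ckm and to Ckb, and Nppb as a hallmark of load. Gamt, Vdac1 and Slc25a4 were named for their role, after their values were seen, as were the called cardiomyocyte markers. Called markers of other cell types are given as counts only. Replicate numbers follow the order of deposition and pair no samples. Promoter sequences are from RefSeq.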

Additional observations from a re-analysis of the deposited data

How the results depend on the processing

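No paired analysis was possible because the replicate numbers only follow the order of deposition and each heart has its own number in the labels. Of 1096 recomputed log2 fold changes of the 8 genes, 1024 kept their sign and their side of the threshold, 5 passed it, all of Ak4 with TAC averaged over exposures, and 67 changed sign without passing it; the cause of none was tested. Counts of genes past the threshold for TAC after diesel exhaust, 442 as reported, were 676 with DESeq2 and 188 to 530 with 1 library left out, at 188 without diesel exhaust TAC replicate 3, 209 without replicate 2, 265 without replicate 1, 223 without diesel exhaust sham replicate 1 and 264 without replicate 3. After filtered air, 113 as reported, they were 247 with no filter on low counts, 258 with DESeq2, 74 with limma voom and 39 to 143 with 1 library left out, lowest without filtered air TAC replicate 2 (39) and below 75 also without filtered air sham replicate 1 (56), 2 (69) or 3 (43). For the average of both exposures the range was 631, without filtered air TAC replicate 2, to 1213. With no filter and with DESeq2, 1 gene passed for diesel exhaust against filtered air among TAC hearts and 1 in the interaction. The log2 Ckb to Ckm difference between TAC and sham ran from 0.56 to 0.77 with 1 library left out.

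Estimates near 0 changed sign. With libraries scaled by their totals alone, diesel exhaust over filtered air was 0.044 for Ckm among sham hearts, 0.047 for Gatm, 0.044 for Ak1 and 0.086 for Ak3 among TAC hearts, and 0.050 for Ckmt2 and 0.058 for Ak4 averaged over surgeries, and TAC over sham averaged over exposures was 0.032 for Ak3. Gatm among TAC hearts was 0.55 with limma voom, and Ak3 was 0.0000 with scaling factors from genes outside the mitochondrial genome. The interaction of Slc6a8 was 0.0002 with DESeq2 and with its size factors in edgeR, 0.0062 with total counts and 0.014 without mitochondrial genes in the scaling. With 1 library left out, these estimates crossed 0. Estimates of TAC over sham after diesel exhaust ran for Slc6a8 from -0.097 to 0.19, Gatm from -0.40 to 0.75 and Ak3 from -0.049 to 0.18. The log2 fold changes of TAC over sham after filtered air ran for Slc6a8 from -0.096 to 0.16. Those of diesel exhaust over filtered air among sham hearts ran for Ckm from -0.12 to 0.046, Ckmt2 from -0.040 to 0.098, Slc6a8 from -0.028 to 0.18, Ak1 from -0.050 to 0.16 and Ak4 from -0.017 to 0.11. Values of diesel exhaust over filtered air among TAC hearts ran for Ckb from -0.35 to 0.10, Slc6a8 from -0.088 to 0.19, Gatm from -0.55 to 0.49, Ak1 from -0.15 to 0.063, Ak3 from -0.10 to 0.12 and Ak4 from -0.40 to 0.12. The estimates of the interaction ran for Slc6a8 from -0.14 to 0.16 and Ak4 from -0.45 to 0.055. Likewise those of TAC over sham averaged over exposures ran for Slc6a8 from -0.038 to 0.11 and Gamt from -0.096 to 0.26. Estimates of diesel exhaust over filtered air averaged over surgeries ran for Ckb from -0.021 to 0.21, Slc6a8 from -0.025 to 0.12, Ak1 from -0.054 to 0.067 and Ak4 from -0.18 to 0.088. The Ckmt2 to Ckm log2 ratio ran from -0.12 to 0.025 for TAC minus sham and from -0.031 to 0.12 for diesel exhaust minus filtered air. Fits of only the groups compared gave no value for the interaction and the averages, which use all 4 groups. Gatm had the fewest counts of the 8 genes, 4 to 58 per library, and differed between hearts of a group; depth and the spread between hearts were not separated.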
